A study of Mus musculus with 6 samples.

Results

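Semaphorins are secreted or membrane-bound guidance proteins, and plexins and neuropilins are their receptors. The 31 genes described here were taken by symbol from the 45777 genes of the deposited table: 20 semaphorins (Sema followed by a class number and a letter), 9 plexins and 2 neuropilins. Expression was measured by RNA sequencing in cultured dorsal root ganglion (DRG) neurons, the sensory neurons that lie beside the spinal cord. The cells came from wild-type C57BL/6 mice, labelled female and 8 weeks old. The ONCM group (3 libraries) was given recombinant oncomodulin, a small calcium-binding protein that promotes axon growth in other settings, at 100 ng/ml for 12 hours. The PBS group (3 libraries) was given the buffer for the same time. The labels call the libraries biological replicates without naming separate cultures or animals, so the tests rest on a spread between libraries that may be technical.

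Semaphorins carry a sema domain that binds the sema domain of a plexin, and the plexin's cytoplasmic part acts on small GTPases and on the cytoskeleton of the growth cone. Most class 3 semaphorins are secreted and reach plexins of the A family through a neuropilin, which binds the ligand. Classes 4 to 6 are transmembrane and bind plexins directly, and class 7 is held to the membrane by a lipid anchor. In the peripheral nervous system these proteins are known for repelling or steering sensory axons, and several are also made by glia, vessels and immune cells.

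Total counts ran from 53770820 to 60291315 in ONCM libraries and from 55920700 to 64477014 in PBS libraries. The 31 genes together took 0.207% to 0.215% of the counts with ONCM and 0.184% to 0.190% with PBS. The libraries were not matched in sex-linked transcripts although all are labelled female. Xist, a noncoding transcript of the silenced X chromosome, was at 413 to 513 CPM (counts scaled to library size) in ONCM libraries and at 0.485 to 0.588 CPM in PBS libraries. Ddx3y, on chromosome Y, was at 15.1 to 16.9 CPM with ONCM and at 58.1 to 62.4 CPM with PBS. A chromosome Y transcript was thus counted in every library, against the female label. ONCM libraries held both transcripts, and PBS libraries held Ddx3y with almost no Xist. For every gene below, treatment cannot be told apart from the sex or source of the cells. Plxna3 and Plxnb3 are themselves on chromosome X.

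Marker genes of several cell types were counted, so the levels are those of a mixed culture. All 10 neuron markers were detected and summed to between 19824 and 20978 CPM with ONCM and between 22439.7 and 23310.2 CPM with PBS, with 2 raised, 7 lowered and 1 not passing. The 10 Schwann cell and satellite glia markers summed to 4475 to 4758 CPM with ONCM and 4375 to 4495 CPM with PBS (5 raised, 1 lowered, 4 not passing). The 12 macrophage markers all rose, with sums of 182 to 189.7 CPM with ONCM and 52.1 to 57.3 CPM with PBS. The 7 fibroblast markers (4 raised, 3 not passing) summed to 429.6 to 449.7 CPM with ONCM and 297 to 301 CPM with PBS. The 7 endothelial markers (5 raised, 2 not passing) summed to 229 to 237 CPM with ONCM and 181 to 187 CPM with PBS. Of 6 lymphocyte markers 1 was tested and did not pass, and the sums were 1.12 to 1.67 CPM with ONCM and 1.20 to 1.76 CPM with PBS. No marker of these lists was at 0 in every library. More or fewer cells of a type and more or less RNA per cell cannot be told apart in these counts, and the part of cell make-up in the values below was not tested.

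All 31 genes passed the filter on low counts. By edgeR's quasi-likelihood test, with Benjamini-Hochberg adjusted p under 0.05 over 20354 genes, 10 of them rose, 11 fell and 10 did not pass. Of all tested genes 48.3% changed, 23.9% upward and 24.4% downward. By limma on log2(TPM + 1) the split was less even, with 3543 genes raised and 5384 lowered, and the 31 genes then numbered 9 raised and 11 lowered. On that scale the median log2 fold change over the genes tested on counts was shifted by -0.043 from the count fit. Levels and sums in TPM below were not corrected for this shift, so whether summed totals overlap can depend on the scale. In the fit limited to genes of at least 1 CPM in 3 libraries, a level that 30 of the 31 genes exceed on average in both groups, 58.2% changed. The share of these 31 genes that changed, 67.7%, was above both figures, and the difference was not tested. Ligands and receptors each split in direction: 6 semaphorins rose, 6 fell and 8 did not pass, while 4 receptors rose, 5 fell and 2 did not pass. The median log2 fold change was -0.05 for semaphorins and 0.06 for receptors, against -0.0021 for all tested genes. The median size of the change, regardless of direction, was 0.30 for semaphorins, 0.32 for receptors and 0.23 for all tested genes. The ONCM and PBS libraries did not overlap in CPM for 21 of the 31 genes, against 55.6% of all tested genes. Changes of at least 1.5-fold that passed the test numbered 6 among semaphorins and 1 among receptors, and 16.5% of all tested genes had one.

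**Figure D1:**
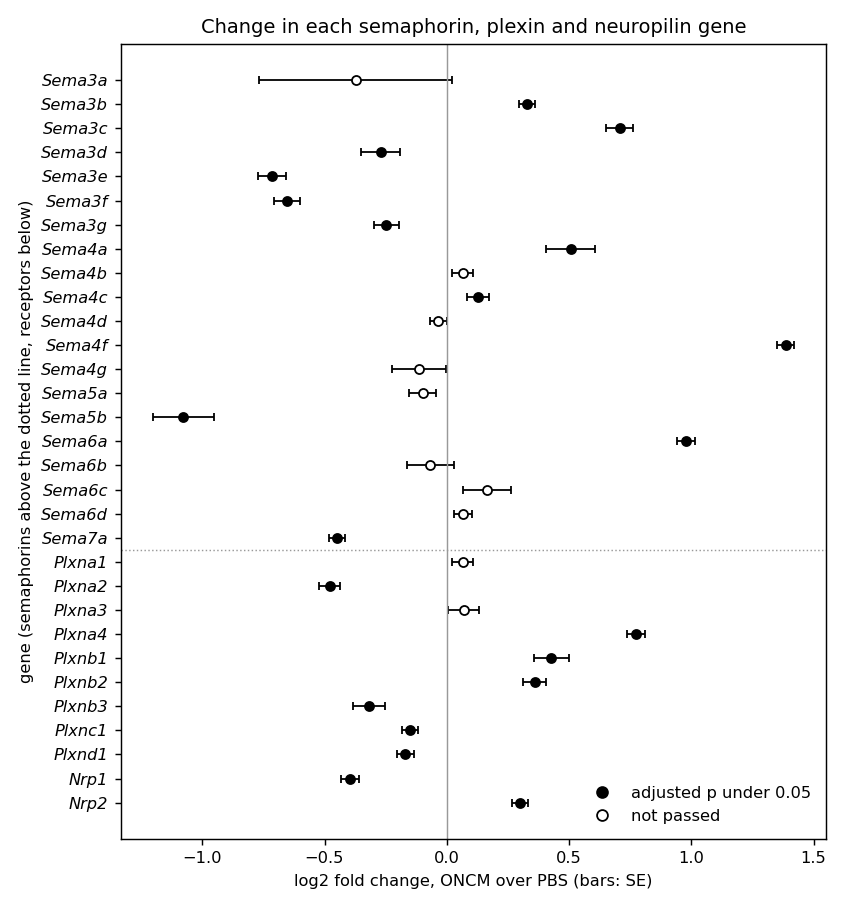
Log2 fold change, ONCM over PBS, of each of the 31 genes by edgeR, with bars of 1 SE; filled points passed at adjusted p under 0.05. Sema4f (1.39), Sema6a (0.98) and Plxna4 (0.77) lie farthest to the right, and Sema5b (-1.08), Sema3e (-0.72) and Sema3f (-0.65) farthest to the left.

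The largest rise was that of Sema4f (chromosome 6, 82911884 to 82939769), a transmembrane class 4 semaphorin known from neurons and Schwann cells. Its level was 138, 143 and 143 TPM (a level scaled for transcript length and library size) in ONCM libraries, against 58.3, 57.0 and 53.7 TPM in PBS libraries. Every ONCM library stood above every PBS library. On counts the log2 difference was 1.39 (SE 0.03, edgeR adjusted p = 6.4e-16), a 2.61-fold higher level. Sema4f made up 24.5% ± 0.736 of all semaphorin TPM with ONCM and 11.4% ± 0.140 with PBS (SD, n = 3 each). With ONCM it was the most abundant semaphorin, above Sema3b in every library, and with PBS it was the third after Sema3b and Sema7a.

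The other class 4 genes moved less. Sema4a, known for roles in immune cells and retina, was at 4.95, 6.08 and 5.83 TPM with ONCM and at 4.58, 4.04 and 2.97 TPM with PBS, without overlap. On counts it rose by 0.51 on the log2 scale (SE 0.10, edgeR adjusted p = 3.82e-04). All 12 macrophage markers rose as well, as did 23.9% of all tested genes, and a link to Sema4a was not tested. Sema4c, a ligand of plexin B2, rose by 0.13 on the log2 scale (SE 0.05, edgeR adjusted p = 0.0288). That call was lost in DESeq2 (0.13, adjusted p = 0.0795) and on log2(TPM + 1) (0.06, limma adjusted p = 0.502), where the ONCM libraries, at 16.2, 16.5 and 14.3 TPM, overlapped the PBS libraries at 14.9, 14.9 and 15.1 TPM. It was also lost without ONCM replicate 2 or 3 and without any 1 of the PBS replicates (adjusted p = 0.0573 to 0.0927), and over all 16 alternatives the adjusted p ran from 0.0161 to 0.549. Sema4c shares 334 of its 4593 exonic bases with a transcript on the opposite strand, and the counting is not stated to use strand.

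Sema4b, Sema4d and Sema4g did not pass. Sema4d, which binds plexin B1, stood at 34.3, 34.9 and 33.5 TPM with ONCM and 36.4, 37.3 and 35.8 TPM with PBS. On counts the 95% interval of its log2 fold change ran from -0.11 to 0.04. Sema4b, at 21.6 ± 0.242 TPM with ONCM and 21.5 ± 0.471 TPM with PBS (SD, n = 3 each), had an interval from -0.03 to 0.16. Sema4g, the lowest of the class at 2.25 ± 0.342 TPM with ONCM and 2.44 ± 0.259 TPM with PBS, had a wider interval, from -0.35 to 0.12. Class 4 as a whole summed to 218, 225 and 219.8 TPM with ONCM and 138, 137 and 132 TPM with PBS, where Sema4f alone averaged 141 TPM with ONCM and 56.4 TPM with PBS.

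Class 6 semaphorins are transmembrane ligands of plexins A. Sema6a (chromosome 18, 47245254 to 47371200), a ligand of plexins A2 and A4, stood at 51.4, 54.4 and 50.3 TPM with ONCM and at 26.7, 26.9 and 26.9 TPM with PBS. The groups lay far apart compared with the spread within either. The rise on the log2 scale was 0.98 (SE 0.04, edgeR adjusted p = 1.19e-13). Sema6b, Sema6c and Sema6d did not pass, with log2 fold changes of -0.07, 0.17 and 0.07. Sema6b was at 3.73, 3.83 and 4.57 TPM with ONCM and 4.37, 4.74 and 4.08 TPM with PBS, and the groups overlapped. Sema6c overlapped as well, at 3.79, 3.75 and 4.60 TPM with ONCM and 3.63, 3.93 and 3.71 TPM with PBS. Sema6d, a ligand of plexin A1, was at 50.5, 51.2 and 37.4 TPM with ONCM and 49.2, 51.1 and 48.1 TPM with PBS, so ONCM replicate 3 stood apart on the TPM scale. Without that library Sema6d passed on counts with a log2 fold change of 0.10 (edgeR adjusted p = 0.00808, and 0.00808 to 0.570 over all 16 alternatives). Its sign was negative on the TPM scale. On log2(TPM + 1) the median over the genes tested on counts was also shifted, by -0.043.

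**Figure D2:**
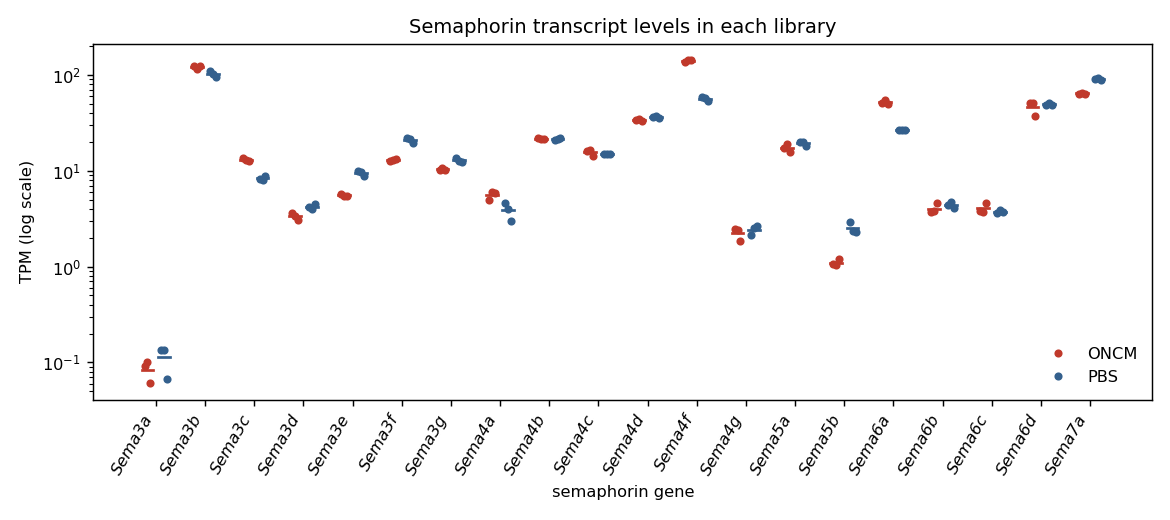
TPM of the 20 semaphorins on a log axis in each ONCM and PBS library, with bars at the group means. Sema4f and Sema6a show the clearest upward separation, Sema5b, Sema3e and Sema3f the clearest downward one, and Sema3a lies below 0.14 TPM in every library.

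Class 3, the secreted semaphorins, held both directions: Sema3b and Sema3c rose, Sema3d, Sema3e, Sema3f and Sema3g fell, and Sema3a did not pass. Sema3c, a ligand for both neuropilins, was at 13.5, 12.9 and 12.7 TPM with ONCM and at 8.19, 8.00 and 8.77 TPM with PBS (log2 fold change 0.71, SE 0.06, edgeR adjusted p = 5.04e-09). Sema3b, also a neuropilin ligand and the most abundant semaphorin of the PBS libraries, was at 124, 117 and 123 TPM with ONCM, against 110.3, 102 and 95.4 TPM with PBS. Its rise was smaller, 0.33 on the log2 scale (SE 0.03, edgeR adjusted p = 2.35e-07).

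Sema3e, which binds plexin D1 without a neuropilin, was at 5.69, 5.50 and 5.51 TPM with ONCM and at 10.03, 9.66 and 8.92 TPM with PBS, again without overlap. It fell to 60.9% of the PBS level (log2 fold change -0.72, SE 0.06, edgeR adjusted p = 4.86e-09). Sema3f, a ligand that acts through neuropilin 2, was at 12.7, 12.9 and 13.2 TPM with ONCM and at 21.8, 21.5 and 19.4 TPM with PBS (log2 fold change -0.65, SE 0.05, edgeR adjusted p = 9e-09). Sema3g fell less, by 0.25 on the log2 scale, at 10.2, 10.7 and 10.2 TPM with ONCM and 13.5, 12.7 and 12.4 TPM with PBS. Sema3d, at 3.63, 3.37 and 3.05 TPM with ONCM and 4.23, 3.96 and 4.50 TPM with PBS, had a log2 fold change of -0.27 (edgeR adjusted p = 0.00925). The Sema3d call was lost without PBS replicate 3 (-0.23, edgeR adjusted p = 0.0522, and 0.00534 to 0.0522 over all 16 alternatives). Sema3a, the best-known repellent of sensory axons, was barely counted: 14, 17 and 10 counts with ONCM and 24, 21 and 11 counts with PBS. Its log2 fold change of -0.37 had an interval from -1.21 to 0.46, so a change of moderate size was not detectable at this depth.

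Neighbouring class 3 genes went opposite ways. Sema3b (chromosome 9, 107597674 to 107609241) and Sema3f (chromosome 9, 107681499 to 107710475) lie 72.3 kb apart with 3 protein-coding genes between them, and Sema3b rose while Sema3f fell. On chromosome 5, Sema3d, Sema3a, Sema3e and Sema3c follow in that order, and Sema3c, 3.32 Mb beyond Sema3e, was the only one of these 4 to rise. Summed over the class, TPM was 169.7, 162 and 168 with ONCM and 168, 158 and 149 with PBS. The totals thus overlapped on the TPM scale, and 6 of the 7 genes changed on counts.

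Sema5b, of the thrombospondin-repeat class 5, had the largest fall. Its level was 1.05, 1.04 and 1.19 TPM with ONCM and 2.91, 2.38 and 2.32 TPM with PBS, a fall to 47.4% of the PBS level (-1.08 on the log2 scale, SE 0.12, edgeR adjusted p = 9.01e-07). Sema5a, the other member of the class and a ligand of plexin B3, was at 17.5, 19.0 and 15.7 TPM with ONCM and at 20.1, 20.1 and 18.2 TPM with PBS. On counts it did not pass (-0.10, edgeR adjusted p = 0.156), and it passed without ONCM replicate 2 (-0.16, adjusted p = 0.0149, and 0.0149 to 0.504 over all 16 alternatives). Sema7a, the lipid-anchored semaphorin, was at 63.8, 64.9 and 64.2 TPM with ONCM and at 90.4, 94.3 and 89.9 TPM with PBS. It fell by 0.45 on the log2 scale (SE 0.03, edgeR adjusted p = 2.64e-09), and its share of semaphorin TPM was 11.2% ± 0.166 with ONCM and 18.6% ± 0.549 with PBS (SD, n = 3 each).

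RefSeq promoter windows of GRCm38.p6 were at hand for 26 of the 31 genes, each holding the 250 bases before the start of 1 RefSeq transcript. Other transcripts of a gene can start earlier, and 16 of the 26 windows lay partly or wholly inside the gene's bounds. Shown are the 3 genes with the largest log2 changes among those whose window lay wholly outside, so that genes raised and lowered can be set side by side. Capitals mark the Sp1 box GGGCGG on either strand, the one searched motif found in these 3.
Sema4f (chr6:82939770-82940019, minus strand): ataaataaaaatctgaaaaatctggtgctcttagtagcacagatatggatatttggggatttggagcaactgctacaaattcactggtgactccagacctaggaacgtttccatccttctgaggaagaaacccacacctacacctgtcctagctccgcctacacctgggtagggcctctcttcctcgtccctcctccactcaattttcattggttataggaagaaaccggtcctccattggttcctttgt
Sema3c (chr5:17574566-17574815, plus strand): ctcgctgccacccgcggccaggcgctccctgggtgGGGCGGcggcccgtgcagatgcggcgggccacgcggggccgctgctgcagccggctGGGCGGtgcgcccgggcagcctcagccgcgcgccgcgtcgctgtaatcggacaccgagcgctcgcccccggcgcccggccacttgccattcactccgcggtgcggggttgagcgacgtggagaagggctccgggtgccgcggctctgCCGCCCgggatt
Sema3e (chr5:14025026-14025275, plus strand): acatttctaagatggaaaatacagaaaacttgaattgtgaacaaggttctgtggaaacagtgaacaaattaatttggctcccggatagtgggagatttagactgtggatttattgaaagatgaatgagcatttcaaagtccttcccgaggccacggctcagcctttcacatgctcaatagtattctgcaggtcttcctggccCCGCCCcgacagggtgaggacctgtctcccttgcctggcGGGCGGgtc
Sema4f, raised, holds none of the searched motifs in this window. Sema3c, also raised, holds 3 Sp1 boxes, and Sema3e, lowered, holds 2. Over all 26 windows the box was found in 20, against 32.9% of 27025 RefSeq promoter windows of the same length. The median GC content was 64.6% in the 26 windows and 52% in all windows. The STAT motif TTCNNNGAA and the cyclic AMP element TGACGTCA were found in none of the 26, against 7.18% and 1.62% of all windows. The AP-1 motif TGANTCA was found in the windows of Sema4c and Sema4d, against 6.87% of all windows. Both strands were searched, motifs were allowed to overlap, and a match or its absence describes only the letters of this window.

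Among the receptors, plexins A transduce class 3 signals with a neuropilin and class 6 signals alone. Plxna4 (chromosome 6, 32144543 to 32588192), a receptor of Sema6a and, with neuropilin 1, of Sema3a, was at 39.7, 39.9 and 35.9 TPM with ONCM and at 23.6, 24.1 and 22.8 TPM with PBS. The groups did not overlap, and the log2 fold change was 0.77 (SE 0.04, edgeR adjusted p = 3.85e-12). Plxna4 shares 110 of its 14103 exonic bases with an antisense gene. Plxna2, a receptor of Sema6a, moved the other way, at 21.7, 21.9 and 19.0 TPM with ONCM and 30.9, 31.3 and 28.8 TPM with PBS (log2 fold change -0.48, SE 0.04, edgeR adjusted p = 3.26e-08). The TPM ratio of Plxna4 to Plxna2 was 1.83, 1.83 and 1.89 with ONCM and 0.765, 0.769 and 0.789 with PBS, so the order of this pair differed between the groups in every library.

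Plxna1 and Plxna3 did not pass. Plxna1 was at 30.1 ± 0.805 TPM with ONCM and 30.0 ± 2.16 TPM with PBS (SD, n = 3 each), and the interval of its log2 fold change on counts ran from -0.02 to 0.15. It shares 970 of its 9054 exonic bases with an antisense gene. Plxna3 was at 6.48 ± 0.276 TPM with ONCM and 6.31 ± 0.593 TPM with PBS. Within the A family Plxna4 took 40.1% ± 0.551 of the TPM with ONCM and 26.1% ± 0.696 with PBS, and Plxna2 21.7% ± 0.700 with ONCM and 33.7% ± 0.414 with PBS. The A family total was 97.5, 99.4 and 90.8 TPM with ONCM and 93.0, 92.5 and 84.9 TPM with PBS, so the totals overlapped on the TPM scale.

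**Figure D3:**
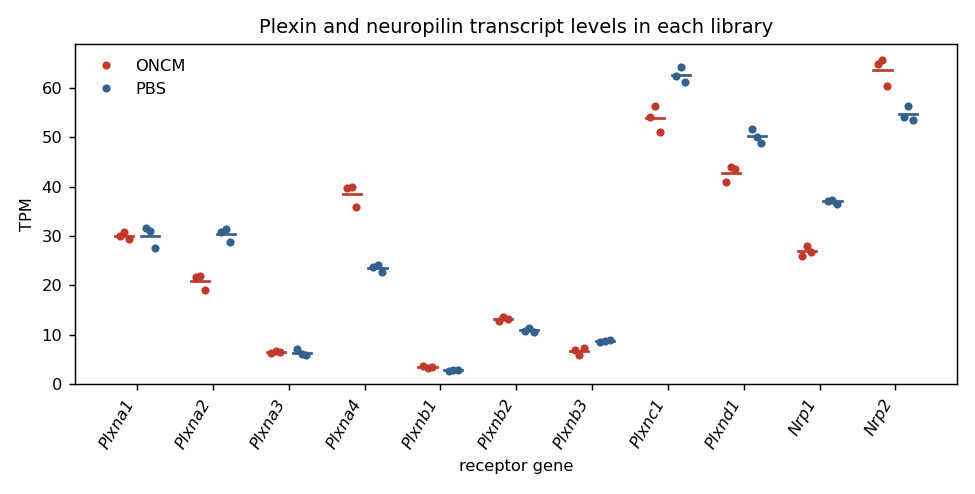
TPM of the 9 plexins and 2 neuropilins in each ONCM and PBS library, with bars at the group means and an axis from 0. Plxna4, Plxnb1, Plxnb2 and Nrp2 lie higher with ONCM, and Plxna2, Plxnb3, Plxnc1, Plxnd1 and Nrp1 lie lower.

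Plexins B1 and B2 are receptors of class 4 semaphorins, and plexin B3 is a receptor of Sema5a. Plxnb1, the receptor of Sema4d, was at 3.56, 3.24 and 3.45 TPM with ONCM and 2.56, 2.87 and 2.78 TPM with PBS (log2 fold change 0.43, SE 0.07, edgeR adjusted p = 8.61e-05). It shares 257 of its 9592 exonic bases with an antisense gene. Plxnb2, a receptor of Sema4c, was at 12.7, 13.6 and 13.2 TPM with ONCM and 10.7, 11.3 and 10.5 TPM with PBS and rose by 0.36 on the log2 scale (SE 0.05, edgeR adjusted p = 5.22e-06). Plxnb3, on chromosome X, was at 6.78, 5.94 and 7.37 TPM with ONCM and 8.42, 8.73 and 8.86 TPM with PBS, and fell by 0.32 on the log2 scale (SE 0.06, edgeR adjusted p = 4.51e-04). For each of these 3 plexin B genes the ONCM and PBS libraries did not overlap.

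Plxnc1, the receptor of Sema7a, was the most abundant plexin in both groups. It was at 54.2, 56.3 and 51.1 TPM with ONCM and 62.5, 64.2 and 61.2 TPM with PBS. The fall was small, -0.15 on the log2 scale (SE 0.03, edgeR adjusted p = 9.76e-04). Plxnc1 shares 115 of its 8349 exonic bases with another gene on the same strand. Plxnd1, the receptor of Sema3e, known best from blood vessels, was at 40.9, 43.9 and 43.7 TPM with ONCM and 51.7, 50.2 and 48.9 TPM with PBS. Its log2 fold change was -0.17 (SE 0.04, edgeR adjusted p = 7.42e-04). Of the 7 endothelial markers 5 rose and 2 did not pass, and a link to Plxnd1 was not tested.

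**Figure D4:**
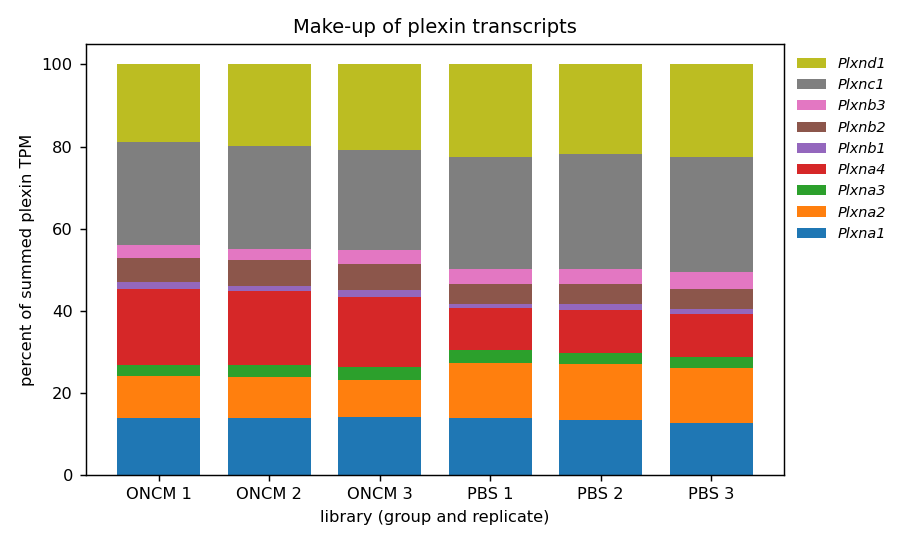
Share of each plexin in the summed plexin TPM of each library, in percent. Plxna4 takes 17.8% on average with ONCM and 10.4% with PBS, while Plxna2, Plxnb3, Plxnc1 and Plxnd1 take smaller shares with ONCM.

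The neuropilins, co-receptors of the secreted semaphorins and of VEGF, moved apart. Nrp1 (chromosome 8, 128358591 to 128505476), which binds Sema3a, was at 26.0, 27.9 and 26.8 TPM with ONCM and at 37.1, 37.4 and 36.5 TPM with PBS. It fell by 0.40 on the log2 scale (SE 0.04, edgeR adjusted p = 3.43e-08). Nrp2 (chromosome 1, 62703317 to 62818692), which binds Sema3f, was at 65.0, 65.8 and 60.3 TPM with ONCM and at 54.1, 56.3 and 53.6 TPM with PBS. It rose by 0.30 on the log2 scale (SE 0.03, edgeR adjusted p = 5.17e-07). The TPM ratio of Nrp2 to Nrp1 was 2.50, 2.36 and 2.25 with ONCM and 1.46, 1.51 and 1.47 with PBS. Their sum was 91.0, 93.7 and 87.2 TPM with ONCM and 91.2, 93.6 and 90.2 TPM with PBS and overlapped between the groups on the TPM scale.

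Known ligands and receptors can be set side by side. Sema6a and Plxna4 rose together, while Plxna2, the other receptor of Sema6a, fell. Sema3f fell and its receptor Nrp2 rose. Sema3c, a ligand for both neuropilins, rose as Nrp2 did, while Nrp1 fell. Sema3e and Plxnd1 both fell, with log2 fold changes of -0.72 and -0.17, as did Sema7a and Plxnc1, with -0.45 and -0.15. Sema4d did not pass while Plxnb1 rose. Sema4c and Plxnb2 both rose, although the Sema4c call was lost in DESeq2. Sema5a did not pass while Plxnb3 fell, and neither Sema6d nor Plxna1 passed. All semaphorins together summed to 579, 585 and 566 TPM with ONCM and 503, 499 and 475 TPM with PBS. The mean sums were 576 TPM with ONCM and 492 TPM with PBS, of which Sema4f alone made up 141 and 56.4 TPM. All plexins summed to 216, 222 and 209.6 TPM with ONCM and 229, 229.7 and 217 TPM with PBS, and these totals overlapped on the TPM scale.

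Of the other genes of the pathway, 16 of 17 receptor partners and alternative receptors were tested, and 10 rose, 3 fell and 3 did not pass (median log2 fold change 0.26). That is 81.2% changed, against 48.3% of all tested genes and 58.2% in the fit limited to genes of at least 1 CPM, and the difference was not tested. Chl1, an adhesion molecule of the L1 family that partners neuropilin 1, was at 222, 225 and 197 CPM with ONCM and 73.8, 72.4 and 74.7 CPM with PBS. It rose by 1.54 on the log2 scale (SE 0.04, edgeR adjusted p = 6.77e-15). Itgb1, the integrin beta 1 chain bound by Sema7a, was at 675, 673 and 646 CPM with ONCM and 424, 419 and 429.6 CPM with PBS (0.65, SE 0.03, edgeR adjusted p = 9.93e-13). Trem2 and its adaptor Tyrobp, which have been linked to plexin A1 signalling in myeloid cells, rose by 3.52 and 2.51 on the log2 scale from low levels, at 1.38 and 2.68 CPM with ONCM and 0.117 and 0.462 CPM with PBS. The macrophage marker sum was 182 to 189.7 CPM with ONCM and 52.1 to 57.3 CPM with PBS. A link to Trem2 and Tyrobp was not tested.

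Cytoplasmic effectors numbered 39, of which 16 rose, 6 fell and 17 did not pass (median 0.04), so that 56.4% changed, a share between the 48.3% of all tested genes and the 58.2% of genes of at least 1 CPM. Crmp1, a collapsin response mediator, was at 206, 215 and 224 CPM with ONCM and 149.9, 146 and 138 CPM with PBS (0.57, SE 0.04, edgeR adjusted p = 4e-10). The LIM kinase genes, whose products phosphorylate cofilin, moved apart: Limk2 had a log2 fold change of 0.41 and Limk1 of -0.47. Iqsec1, an exchange factor for Arf6, fell by 0.49 on the log2 scale. Of 7 proteases that cut semaphorins 5 rose and 2 did not pass (median 0.25), against 23.9% raised among all tested genes, with Mmp14, Furin, Adam17 and Adam10 at 0.51, 0.28, 0.25 and 0.18. Of 5 VEGF genes, whose products share the neuropilins, Vegfd and Vegfc rose by 0.81 and 0.76, Vegfb and Vegfa had -0.76 and -0.16, and Pgf did not pass. Thus 4 of the 5 changed, against 48.3% of all tested genes. Vegfd lies on chromosome X, like Plxna3 and Plxnb3.

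**Figure D5:**
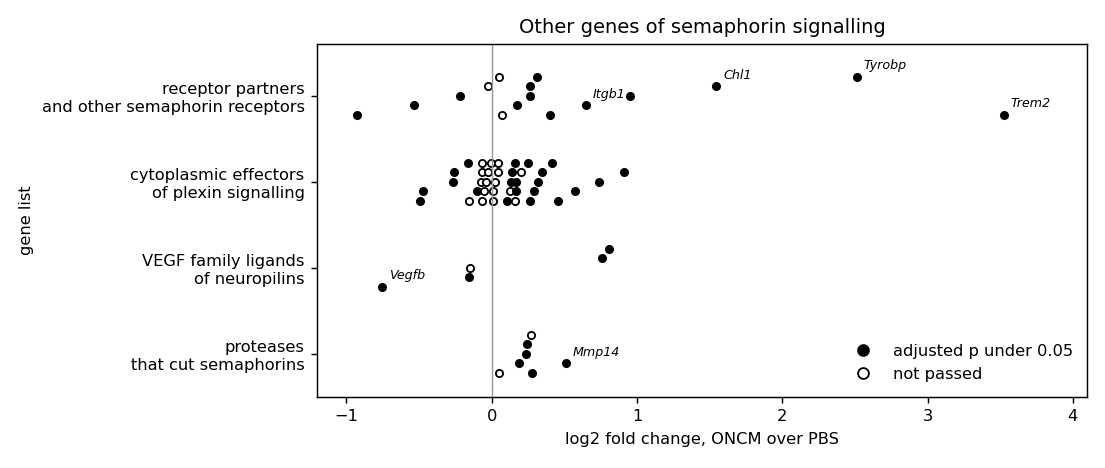
Log2 fold change, ONCM over PBS, of the tested genes in 4 lists of other semaphorin signalling genes; filled points passed at adjusted p under 0.05. Trem2 (3.52), Tyrobp (2.51) and Chl1 (1.54) lie farthest to the right, and the protease genes all lie above 0.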

How the data were processed

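The authors deposited 1 table with read counts, FPKM and TPM per gene for 6 libraries, with columns named by the sample codes of the labels. Raw counts were tested as deposited. The TPM values deposited by the authors served for levels, shares and as an alternative scale, and the deposited FPKM values as an alternative for sums. The submitters' processing notes name the build mm10. For the aligner, counter, annotation release and strand setting the answer is not given in the sources used here. RNA came from a column kit, per the labels' protocols.

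ONCM was compared with PBS in R 4.3.3 with edgeR 4.0.16 (filterByExpr, TMM, robust quasi-likelihood F-test, no covariate), adjusted over all 20354 tested genes. The SE is the size of the log2 fold change over root F, and CPM values carry the TMM scaling. Alternatives used DESeq2 1.42.0 and limma 3.58.1, other factors, filters and pseudocounts, and each library left out. The test was checked on simulated counts, with changes put into genes of all levels. It recovered 44.9% of 1.25-fold, 60% of 1.5-fold, 80.9% of 2-fold and 97.9% of 4-fold changes. Of its 142 calls among 20000 genes 3.52% were false. In the data 48.3% of tested genes were called, a far larger share, so these rates may not carry over to the data. A gene that did not pass can still have changed. A floor of 3 counts is 0.0464 to 0.0558 CPM and covers counting error only. Replicates differed by more than sampling noise (chi-square per degree of freedom 2.76 to 7.09), and all 6 libraries were kept. Gene coordinates are from the GRCm38.p6 RefSeq table, matched by Entrez number for 31 of 31 genes, and exon overlaps from GENCODE M21 on the same assembly. Members were taken by symbol and all are named. Up to 4 genes of each pathway list with the smallest p-values are named. Members and lists were chosen with earlier results of these data known.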

Additional observations from a re-analysis of the deposited data

How the results depend on the processing

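The 5 lowered and 4 raised receptors were the counts under all 16 alternatives except the fit without chromosomes X, Y and MT, which leaves out Plxnb3 and had 4 lowered. Semaphorins numbered 5 to 6 raised and 5 to 7 lowered. Over the 31 genes and 16 named pathway genes, 731 gene-by-alternative results kept their side of the threshold (3 of them, all Sema6d on TPM, with the opposite sign and not passing), 11 lost the call (10 for Sema4c and 1 for Sema3d) and 3 gained one (2 for Sema5a and 1 for Sema6d). The log2 ratio of summed semaphorin TPM was 0.23, and 0.29 on FPKM. That of summed receptor TPM was -0.05, and 0.012 on FPKM, so its sign depends on the scale. Both ratios, of semaphorins and of receptors, were higher on FPKM than on TPM. The source of this difference in scale was not tested. Leaving out 1 library gave 0.20 to 0.24 for semaphorins and -0.07 to -0.03 for receptors.

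No pairing of the libraries by their shared replicate numbers is stated. Deviations of same-numbered libraries correlated at 0.02, -0.01 and 0.03. With 3 libraries per group, such values cannot exclude that same-numbered libraries were handled together. With the replicate number as a block, 4733 genes rose and 4864 fell, against 4869 and 4960 without it. Semaphorins then numbered 6 raised and 7 lowered and receptors 4 and 5. Sema5a passed with the block (-0.10, edgeR adjusted p = 0.0358). Depth limits the low genes: Sema3a, at 10 to 24 counts, allows no statement about its direction.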
